A study of Mus musculus with 18 samples.

Results

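The genes described here are 10 mouse genes of the ATF4-CHOP stress response: Atf4, Atf5, Ddit3 (which encodes CHOP), Cebpb, Trib3, Ppp1r15a, Nupr1, Chac1, Sesn2 and Adm2. They were taken by symbol from a table of 21859 protein-coding genes, together with the promoter upstream transcripts (PROMPTs) of the same symbols in a table of 32253 PROMPTs, of which 7 belong to the set. The genes were selected on their place in this pathway with the log2 fold changes between SPT16-depleted and control cells already known, and no value of that comparison is used below. Nascent RNA was measured by TT-seq, which labels new RNA with 4-thiouridine, for 5 min in these cells, and sequences the labelled fraction.

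The cells were E14 murine embryonic stem (ES) cells, all of which carried osTIR1, the plant receptor that directs degron-tagged proteins to degradation when auxin is added. In 4 of the 6 groups SPT16, a subunit of the histone chaperone FACT, also carried an auxin-inducible degron and a V5 epitope, in either of 2 lines that were each grown from a single clone. Cells were left undisturbed for 48 h and then treated for 24 h with the auxin 3-indoleacetic acid (3-IAA, at 500 nM per the labels) or with 0.1% ethanol (EtOH). The 6 groups were untagged cells in EtOH, untagged cells in 3-IAA, SPT16_AID_V5 clone 1 in EtOH, clone 1 in 3-IAA, clone 2 in EtOH and clone 2 in 3-IAA, with 3 libraries each and 18 in all. The study's methods treat the clones as biological and the repeats as technical replicates, and they give the 3-IAA dose in a larger unit than the labels do.

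The value reported for each gene or PROMPT is the authors' mean over all 18 libraries of the read count divided by a size factor, named the pooled mean count below. It covers depleted and control cells together, so it is the amount of nascent transcription in the series as a whole and gives no level in any single group. No error can be attached to it, so the order of the genes is a description, and no test can say whether neighbours in that order differ. The depth of single libraries is not known. The value that 1 read in 1 library takes gives only their relative size factors. These spanned 5.34-fold in the gene table and 4.84-fold in the PROMPT table.

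Cells that meet amino acid shortage, unfolded protein in the endoplasmic reticulum, haem shortage or double-stranded RNA phosphorylate the translation factor eIF2 on its alpha subunit. General translation then falls, while the mRNA of ATF4, whose leader holds short upstream reading frames, is translated more. ATF4 is a basic leucine zipper (bZIP) factor that binds DNA with C/EBP family partners and turns on genes for amino acid supply and redox balance, among them Ddit3, which encodes the bZIP factor CHOP. The pathway also turns on its own brakes, including a phosphatase subunit that reverses the phosphorylation of eIF2.

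ATF4 with a C/EBP partner binds DNA letters of the form TGATGNAA, and these letters were searched on both strands from 1000 bases upstream to 50 bases downstream of the RefSeq start of each gene. A match occurred at 5 of the 10 genes, and a further element bound by bZIP factors, the cyclic AMP response element TGACGTCA, occurred at Ppp1r15a. The 30 bases around each match are shown as the places where the searched letters occurred. They are written 5′ to 3′ on the strand of the gene (GRCm38), with the match in capitals, and each of the 5 TGATGNAA matches was read on the strand opposite to the gene, so that its complement is printed.
Ddit3, chr10:127290481-127290510, plus strand: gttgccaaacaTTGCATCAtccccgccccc
Trib3, chr2:152344028-152344057, minus strand: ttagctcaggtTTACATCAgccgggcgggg
Nupr1, chr7:126625562-126625591, minus strand: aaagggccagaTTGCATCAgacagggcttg
Chac1, chr2:119351038-119351067, plus strand: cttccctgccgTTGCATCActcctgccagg
Sesn2, chr4:132510742-132510771, minus strand: gtgaagtcccgTTTCATCAcgcagccctaa
Ppp1r15a, chr7:45526262-45526291, minus strand: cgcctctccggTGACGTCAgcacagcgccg

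The matches differed in place. Those of Ddit3, Chac1 and Sesn2 lay upstream of the annotated gene, with the first base 301, 193 and 304 bases before the RefSeq start. The match of Trib3 lay 15 bases into the RefSeq transcript and upstream of the gene model of Gencode vM21, whose start is further downstream. The match of Nupr1 began 110 bases before the RefSeq start, inside the longer Gencode gene model, where 2 of its 6 transcripts have an exon. The element of Ppp1r15a began 12 bases before the start. Ddit3, Nupr1 and Chac1 shared the 8 letters TTGCATCA, and of these Ddit3 and Nupr1 also held the longer form TGATGCAAT.

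Among 32851 RefSeq promoters of 300 bases (250 upstream and 50 downstream of the start), 3.97% held TGATGNAA, and the promoters of 3 of the 10 genes did, namely Chac1, Nupr1 and Trib3. In windows of 1050 bases 13.6% of all promoters held it, as did those of 5 of the 10 genes. Among promoters of genes with a pooled mean count of at least 1, the shares were 2.63% and 11.6%. The longer TGATGCAAT occurred in 0.192% of the promoters of 300 bases and in 0.639% of the longer windows. TGACGTCA occurred in 1.79% of the promoters of 300 bases. A match of letters is not a binding site, and no match says only that these letters are not in the window searched.

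The upstream regions of Chac1 and Ddit3 are shown whole, Chac1 because its match lies within 250 bases of the start, and Ddit3 because its PROMPT, whose window holds this stretch on the opposite strand, was the highest of the set. Each run is the 250 bases before the most upstream annotated start (GRCm38, plus strand), with TGATGNAA matches in capitals. The match of Ddit3 lies just outside its run.
Chac1, chr2:119350979-119351228: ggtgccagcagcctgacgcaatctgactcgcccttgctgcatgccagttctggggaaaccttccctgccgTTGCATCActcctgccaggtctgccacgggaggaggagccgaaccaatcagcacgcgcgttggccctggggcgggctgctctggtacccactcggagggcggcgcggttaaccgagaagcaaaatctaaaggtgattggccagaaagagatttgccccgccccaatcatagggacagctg
Ddit3, chr10:127290524-127290773: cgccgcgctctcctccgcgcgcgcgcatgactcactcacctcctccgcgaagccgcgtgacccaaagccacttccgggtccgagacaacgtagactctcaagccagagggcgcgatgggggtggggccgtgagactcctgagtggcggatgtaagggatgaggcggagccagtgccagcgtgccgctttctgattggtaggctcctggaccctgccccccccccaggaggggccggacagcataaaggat

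Other promoter letters were spread unevenly over the set. The CCAAT box (CCAAT) was found within 1050 bases at all 10 genes, where 76.8% of all promoters held it. The GC box (GGGCGG) was found at 7 genes against 44.9% of all promoters and 63.8% of those of genes with a pooled mean count of at least 1. The letters of the TATA box (TATAAA) were found at 4 genes (Atf5, Cebpb, Ppp1r15a and Trib3) against 45.7% and 39.7%. These matches began 749 bases before the RefSeq start at Atf5 and 166 bases before it at Trib3. At Cebpb and Ppp1r15a they began 22 and 16 bases into the RefSeq transcript, so the letters alone do not make a TATA box. The 10 genes had 11 RefSeq promoters, since Atf5 had a second start, and all 11 were richer in G and C than the median promoter (52.7%). That median covers all promoters and was not taken over genes with a pooled mean count of at least 1 alone. The promoters of Adm2 and of the second Atf5 start were nearest to it, at 54.7%. The Cebpb promoter stood highest at 80.7% G and C with 50 CpG dinucleotides, while that of Nupr1 had 6 and those of all promoters had a median of 7.

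**Figure D1:**
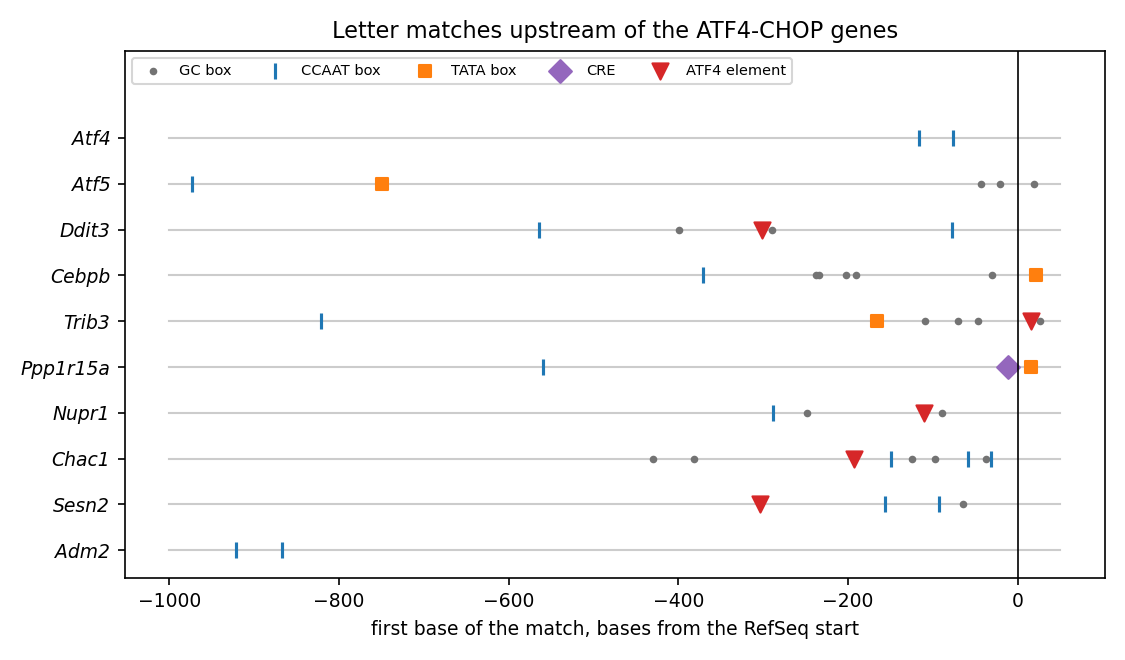
Positions of letter matches on either strand in the 10 ATF4-CHOP genes, in bases from the RefSeq start (vertical line), from 1000 bases upstream to 50 bases downstream. Red triangles are TGATGNAA matches, found at 5 genes, the purple diamond is the TGACGTCA match of Ppp1r15a, and orange squares, blue ticks and grey dots are TATA, CCAAT and GC boxes at the first RefSeq start of each gene.

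The 10 genes were short. Their genomic span had a median of 3.88 kb, while genes with a pooled mean count above 0 had a median of 19.6 kb. Of the 10 genes, 9 spanned under 10 kb, as did 31.3% of those genes, and Sesn2 was the exception at 18.5 kb. They had a median of 3 exons after merging transcripts, against 8 for all genes above 0. Reads in nascent RNA come from introns as well as exons, so the choice of length bears on every level per kb. In this table, 380 of the 382 genes that lie inside another listed gene on the same strand were at 0, among them 180 of the 182 that share no exon bases with it, while 6.05% of the other genes were at 0. The sources used here do not state whether reads were counted over whole gene spans or over exons. If spans were counted, a level per kb of exons holds intron reads divided by an exon length, which bears most on genes with long introns such as Sesn2. Levels are therefore given per kb of merged exons and per kb of span outside other listed genes of the same strand, and percentiles are among genes above 0.

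Of the 4 bZIP factors of the set, Atf4 was the most transcribed. Its pooled mean count was 5287 over a gene of 2.36 kb on chromosome 15 that is annotated as exon throughout when its transcripts are merged, so that it stood at 2242 per kb of exons and of span alike. This placed it at percentile 94.7 per kb of exons and at percentile 99.6 per kb of span, where it led the 10 genes. Atf5, a relative of ATF4 whose mRNA is also controlled by upstream reading frames, had a pooled mean count of 1036. Its level of 520 per kb of exons fell at percentile 71.1, and its level of 235 per kb of span at percentile 89.6.

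Ddit3, whose product CHOP pairs with other C/EBP factors and is known for its part in stress-induced cell death, had a pooled mean count of 801, or 467 per kb of exons (percentile 69.2). The table lists a second gene of the same symbol, ENSMUSG00000116429, at 0. It lies inside the main Ddit3 gene, ENSMUSG00000025408, on the same strand from 127290829 to 127293753 of chromosome 10, and shares 105 exon bases with it. Outside this second gene 47.0% of the Ddit3 span, 2.59 kb, was left, and over that length its level was 309 per kb (percentile 93.4). Divided by the full span of 5.52 kb it was 145. If reads over the second gene were given to neither gene, the count of 801 lacks them. The levels of 467 and 145 would then be too low. Cebpb, an intronless gene for the C/EBP family member C/EBP beta, was the lowest of the 10 genes on each scale, with a pooled mean count of 56.6 and a level of 37.6 per kb of exons and of span, at percentiles 39.6 and 55.0.

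The 3 regulators that act back on the pathway lay closer together. Ppp1r15a, also named GADD34, the stress-induced subunit that brings protein phosphatase 1 to eIF2, had a pooled mean count of 2331, a level of 794 per kb of exons (percentile 79.2) and a level of 695 per kb of span (percentile 98.3). Trib3, a pseudokinase that binds ATF4 and CHOP, had a pooled mean count of 1500, with 706 per kb of exons (percentile 76.9) and 227 per kb of span (percentile 89.0). Nupr1, a small stress-induced nuclear protein, had a pooled mean count of 1232, with 490 per kb of exons (percentile 70.0) and 162 per kb of span (percentile 82.0). Its span of 7.61 kb follows the longest annotated transcript, which starts at base 126630861 of chromosome 7, upstream of the RefSeq start at 126625470. If transcription began mainly at the RefSeq start, the level per kb of span would be too low. The share of its PROMPT in that level, given below, would then be too high. Which start was used to place the PROMPT window is not given.

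Of the effector genes, Sesn2, which encodes a leucine-binding inhibitor of mTORC1 signalling, had the highest pooled mean count of the 10 at 13772. Per kb of exons it was also the highest, at 3963 (percentile 98.3), while per kb of span it was second to Atf4 at 746 (percentile 98.4). Chac1, an enzyme that degrades glutathione, had a pooled mean count of 1397, with 854 per kb of exons (percentile 80.4) and 443 per kb of span (percentile 96.4). Adm2, a secreted peptide of the calcitonin family, was low among the 10 genes, though above the median gene on both scales. It had a pooled mean count of 209, 161 per kb of exons (percentile 53.2) and 104 per kb of span (percentile 71.8).

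The highest and lowest of the 10 genes thus differed by 105-fold per kb of exons (Sesn2 over Cebpb) and by 59.6-fold per kb of span (Atf4 over Cebpb). Per kb of exons, 9 of the 10 lay above the median gene, which stood at 120.5, with Cebpb below it. Per kb of span all 10 lay above the median gene, at 23.4, and 5 lay above percentile 90, namely Atf4, Sesn2, Ppp1r15a, Chac1 and Ddit3. Divided by full span, Ddit3 stood at percentile 79.8 instead. Adm2 and Cebpb were the lowest on both scales. Ddit3 lay below Atf5, Trib3 and Nupr1 per kb of exons and above all 3 per kb of span outside the second gene. The place of Ddit3 per kb of exons and of full span would be too low if its count lacks reads over that second gene.

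**Figure D2:**
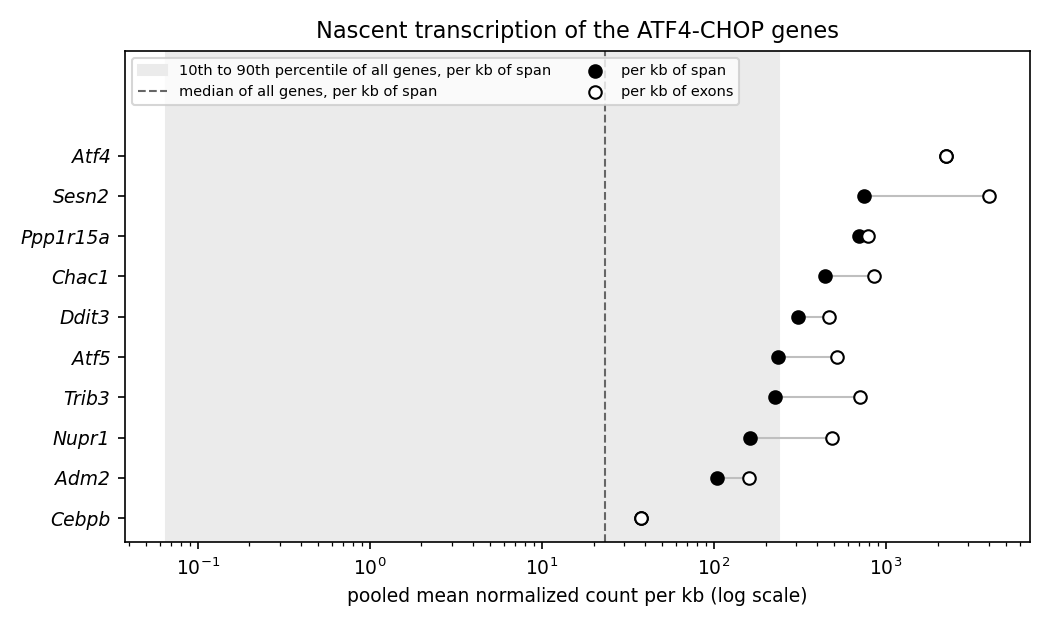
Level of each of the 10 genes as the pooled mean count of 18 libraries per kb (log axis), per kb of span outside other listed genes (filled) and per kb of merged exons (open), joined by a line. The dashed line is the median gene per kb of span (23.4) and the grey area runs from percentile 10 to 90 of all genes on that scale, which 5 of the filled points exceed. The values are means of the authors over all libraries and have no error bars.

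PROMPTs are short unstable RNAs made upstream of promoters in the opposite direction to the gene, and in the deposited table they are windows of up to 1 kb upstream of and antisense to annotated starts, outside 1 kb of other protein-coding transcripts. The length of each window is not given, and percentages of the gene's level below take every window as 1 kb. Protein-coding genes lie within 1 kb of the window of Ddit3 (Mbd6) and of Atf4 (Mief1), so that these windows may be shorter and their percentages too low. A PROMPT was listed for Atf4, Ddit3, Trib3, Nupr1, Chac1, Sesn2 and Adm2. The 3 genes without one each had a protein-coding gene on the opposite strand in the 1 kb before their start. For Atf5 these were Il4i1 (start 271 bases away, pooled mean count 1361) and Nup62, for Cebpb it was Tmem189 (907 bases away, 362) and for Ppp1r15a it was Plekha4 (62 bases away, 361).

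Ddit3 had the highest PROMPT of the set, with a pooled mean count of 119, at percentile 99.1 of PROMPTs above 0 and rank 213 of the whole table. It was 2.62 times the next, that of Sesn2 at 45.3 (percentile 96.0). The annotation has a noncoding gene, Gm4189, on the opposite strand in this window, with its start 14 bases from that of Ddit3, so that the reads counted as the Ddit3 PROMPT and reads of Gm4189 cannot be told apart. The protein-coding gene Mars, also on the opposite strand, overlaps the Ddit3 gene but not the window. Its start lies 21012 bases from that of Ddit3, and its pooled mean count was 3832. Whether reads from Mars reach the window was not tested. For the other 6 genes no annotated gene overlapped the 1 kb before the most upstream annotated start. The PROMPT of Chac1 had a pooled mean count of 35.5 (percentile 94.6) and that of Atf4 one of 18.2 (percentile 89.7).

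The remaining PROMPTs were lower. Nupr1 had 10.7 (percentile 84.7), Trib3 had 8.10 (percentile 81.7) and Adm2 had 5.97 (percentile 78.1). All 7 were above the median PROMPT above 0, at 0.815, and the highest was 19.8 times the lowest. Summed over the 18 libraries these are between 108 normalised reads for Adm2 and 2134 for Ddit3, so that the low PROMPTs rest on few reads per library.

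The order of the PROMPTs differed in part from that of the genes. Atf4, the most transcribed of the 7 per kb of span, had a PROMPT of 0.813% of its own level per kb, at percentile 27.1 of 14397 pairs of a PROMPT and its gene. Ddit3 had a PROMPT of 38.3% of its level per kb of span outside the second gene (percentile 83.4), 25.4% of its level per kb of exons and 81.6% of its level per kb of full span, all of which include what the annotation gives to Gm4189. The shares of 25.4% and 81.6% would be too high if the gene count lacks reads over the second gene. Chac1, Nupr1, Sesn2 and Adm2 had 8.01%, 6.60%, 6.08% and 5.75% of their level per kb of span, above the median pair of 4.54%, and Trib3 had 3.57%, below it. These 5 lay near the middle of the pairs, at percentiles 59.7, 56.4, 54.8, 53.8 and 45.7 in that order. Per kb of exons none of the 7 lay below the median pair (0.76%), so for Atf4 and Trib3 the side of the median depends on the length used. Spearman's rho between PROMPT and gene level was 0.39 over the 7 genes and 0.53 over all pairs per kb of exons, and 0.64 over the 7 genes and 0.63 over all pairs per kb of span outside other genes. These are correlations across genes that share all 18 libraries, and genes are not independent replicates.

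**Figure D3:**
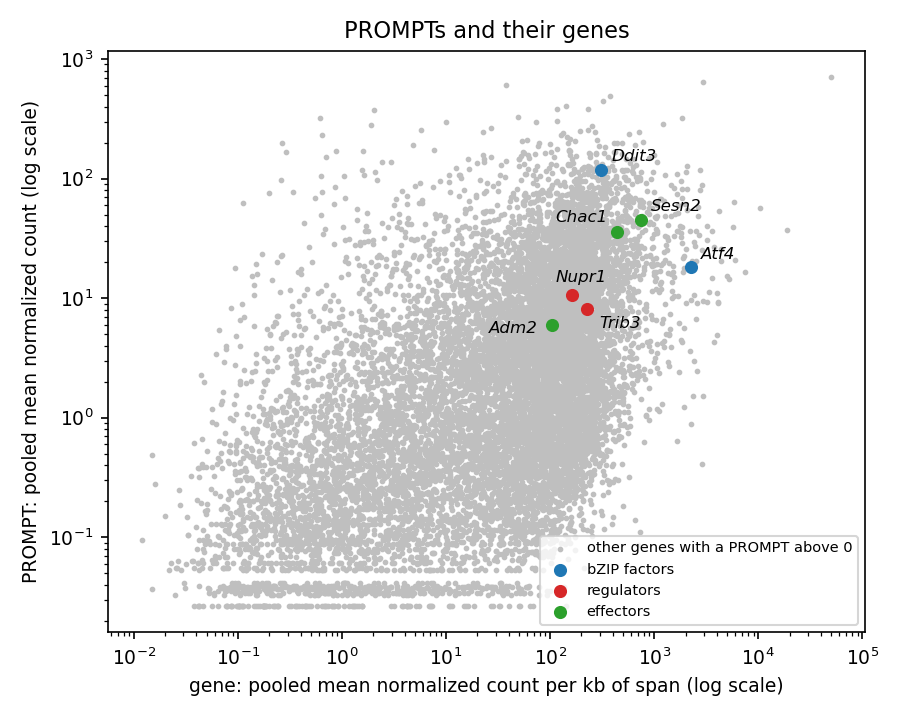
Pooled mean count of each PROMPT against the level of its gene per kb of span outside other listed genes (both axes log), for pairs with a gene count of at least 1 and a PROMPT above 0. The 7 coloured points are ATF4-CHOP genes, with Ddit3 highest on the PROMPT axis at 119 and Atf4 furthest right at 2242 with a PROMPT of 18.2.

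The other genes of the pathway were taken from lists by role and are given by their levels in the same table, since no change between groups is reported here. Per kb of span, the 4 eIF2 alpha kinases, which sense the different stresses, had a median of 56.8, from 48.5 for Eif2ak1 (HRI, the haem-regulated kinase) to 81.7 for Eif2ak2 (PKR, which senses double-stranded RNA). Per kb of exons these same genes were the ends in reverse, with Eif2ak1 at 740 and Eif2ak2 at 479. All 8 subunits of eIF2 and its exchange factor eIF2B lay above the median gene, with a median of 205 per kb of span and Eif2s2, the eIF2 beta subunit, highest at 1714. Eif2b4, an eIF2B subunit, was lowest of the 8 per kb of exons, at 370. The 4 genes of the eIF2 phosphatase other than Ppp1r15a had a median of 648 per kb of span, above the median of 272 for the 10 genes. Of these Ppp1cc, a catalytic subunit, was highest per kb of exons at 3593, and Ppp1ca, also a catalytic subunit, was lowest at 762.

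Of 17 genes listed as bZIP partners and relatives 11 lay above the median gene per kb of span, with a median of 92.2, and 10 did so per kb of exons. The list also holds Cebpz, which is not a bZIP gene despite its symbol. It stood at 225 per kb of span and 873 per kb of exons, so these counts are for the whole list. The highest of them per kb of exons was Atf2 at 2259 and the lowest Atf7 at 1.81. Only 0.397 kb of Atf7 lies outside another listed gene, and over that length it stood at 50.1 per kb, above the median gene, while the lowest on that scale was Batf at 1.58. Of 7 genes listed as regulators of ATF4, a role that was not tested here, 6 lay above the median gene. Eif4ebp1, which encodes the translational repressor 4E-BP1, was highest at 7974 per kb of exons and Tet3, a dioxygenase that acts on 5-methylcytosine, lowest at 66.8.

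A further list of 33 genes held targets of ATF4 or CHOP together with relatives of the 10 genes, such as Sesn1, Trib1, Chac2 and Adm. Of the 33, 31 were found, and 30 of these had span outside other listed genes. Per kb of exons 24 of the 31 lay above the median gene, and per kb of span 24 of the 30 did, with a median of 117. They were not all the same genes, since Chac2 lay above the median gene only per kb of exons and Trib1 only per kb of span. These values are for the whole list and not for targets alone. Asns, the asparagine synthetase gene and a classic ATF4 target, was the highest per kb of exons, at 9215, above all 10 genes on that scale, while per kb of span it stood at 1394, below Atf4. The autophagy gene Map1lc3b was listed at 0, but it lies wholly within other listed genes of the same strand, so its 0 is not a level. It is still among the 31 genes counted per kb of exons.

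**Figure D4:**
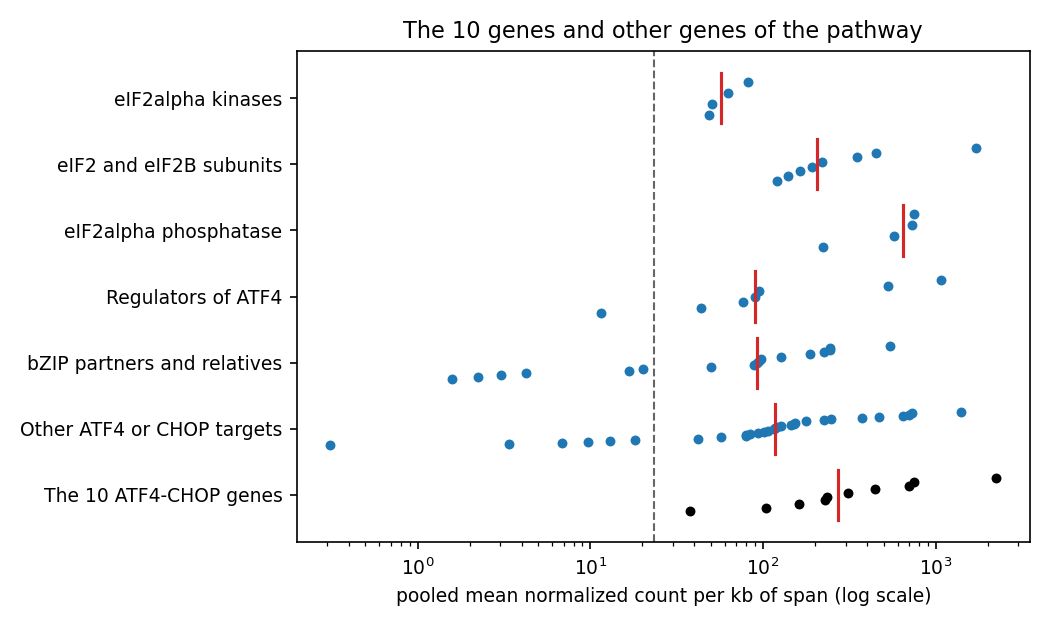
Level per kb of span outside other listed genes (log axis) of the genes in each list of the pathway (blue) and of the 10 ATF4-CHOP genes (black), 1 point a gene, spread vertically by rank. Red bars are the median of each list, 272 for the 10 genes and 56.8 for the eIF2 alpha kinases, and the dashed line is the median of all genes above 0 (23.4). The list of other ATF4 or CHOP targets also holds relatives of the 10 genes. Values are the authors' means over all libraries.

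The levels fitted the labelled cell type. All 10 ES cell markers, among them Pou5f1, Sox2 and Nanog, lay above the median gene, with a median of 4985 per kb of exons. None of 5 fibroblast markers and none of 10 markers of other tissues did, and the highest of these, Cd3e, stood at 13.8. Whether cells of another kind differ between groups cannot be read from a pooled mean.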

How the data were processed

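Per the methods, reads were trimmed (Trim Galore), uniquely aligned to mm10 (STAR) and counted by strand on Gencode vM25 (featureCounts). The labels name HTSeq among the tools instead. The deposited values used here are 1 signal per feature, the authors' mean over 18 libraries of counts divided by DESeq2 size factors. The other 4 value columns of each table hold the authors' comparison (log2 fold change, its standard error, p-value and adjusted p-value) and were not used, so no test was run. The gene and PROMPT tables were normalised separately. By the values that 1 read in 1 library takes, their scales differ by 1.023 times. The same values give the relative size factors of the libraries.

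Levels per kb used Gencode vM21 (GRCm38), which matched 21817 of 21859 genes, and promoters came from RefSeq (GRCm38.p6), all 32851 equal to the genome. Named were all 10 genes and, for each role in the pathway list, the genes highest and lowest per kb of exons, while any further gene was picked once its value was known. The members and lists were chosen with earlier results of these data known. The search for 1-read values was tested on simulated data. Python 3.11.15, pandas 2.3.3, numpy 2.4.6, pysam 0.24.0 and matplotlib 3.10.9 were used. Alternatives were other lengths, minimum counts, a rescaling of PROMPTs and stricter letters.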

Additional observations from a re-analysis of the deposited data

How the results depend on the processing

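The level per kb had a median over the 10 genes of 613 by exons, 231 by full span, 783 by the longest transcript and 272 by span outside other listed genes, a length chosen after seeing the data. The median percentile of the 10 genes was 74.0 among genes above 0, 70.3 among genes of at least 1, 66.0 among genes of at least 10, 63.3 with counts not divided by length and 91.5 per kb of span outside other genes. The median PROMPT percentile was 89.7, or 78.0 among PROMPTs of at least 1. The median PROMPT was 2.18% of the gene's level per kb of exons, 2.23% after rescaling, and 6.08% by full span and by span outside other genes. Promoters of 300 bases with an ATF4 element fell from 3 to 1 with TGATGCAAT only, and the share of promoters with TGATGNAA was 3.97%, or 2.63% for genes of at least 1. No paired analysis was possible because the columns used hold no value of a single library, and for the same reason no replicate could be left out. Depth per library is not known beyond relative size factors, and the pooled means carry no replicate error. Summing the PROMPT rows of a symbol left the median percentile at 89.7. The causes of these differences were not tested.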
